A study of Homo sapiens with 18 samples.

Results

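Insulin-like growth factor (IGF) signalling was examined at 4 genes in A673, an established Ewing sarcoma cell line that carries the EWSR1-FLI1 fusion. IGF1 is the ligand, IGF1R the receptor tyrosine kinase, IRS1 the adaptor that carries the signal from the receptor, and IGFBP3 a secreted binding protein that holds the ligand in the extracellular space. Every deposited peak that shared at least 1 bp with a gene body or the 200 kb on either side of it was taken, so peaks were chosen by position and not by score, while the genes themselves were chosen with earlier results of these data known. The windows held 36 of 45354 peaks: 4 of 2573 for RING1B replicate 1, 7 of 3945 for RING1B replicate 2, 16 of 26423 for H2Aub1 replicate 1, 8 of 10268 for H2Aub1 replicate 2 and 1 of 2145 for EWSR1-FLI1. The libraries were chromatin immunoprecipitation sequencing (ChIP-seq) of untreated A673 cells, with the RING1B antibody MBL D139-3, the H2Aub antibody Cell Signalling D27C4, and Abcam ab15289 for EWSR1-FLI1. All cells were of this single line, and the labels do not say whether replicates came from separate cultures. The other 13 of the 18 samples, among them those with RING1B knockdown, were not analysed here.

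In IGF signalling the ligand activates the receptor, which phosphorylates IRS1, and this in turn engages phosphatidylinositol 3-kinase and AKT. Ewing sarcoma cells are known to depend on IGF1R, and the fusion is known to lower IGFBP3 expression and so to free the ligand. EWSR1-FLI1 binds DNA at GGAA motifs, most strongly where they are repeated in tandem. RING1B is a catalytic subunit of Polycomb repressive complex 1 and attaches a single ubiquitin to histone H2A, which gives the mark H2Aub1, often at CpG-rich gene starts. Peak lists do not measure expression, so the repression of IGFBP3 is background and was not examined.

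The 4 genes carried different combinations of the 3 features. The receptor had 3 RING1B regions found in both replicates, all upstream of its start, H2Aub1 just inside the gene and a low-scoring EWSR1-FLI1 peak far inside the gene. The adaptor had H2Aub1 over its start and 1 RING1B region within the gene. The binding protein had H2Aub1 over its start and neither protein. The ligand had no peak of RING1B or EWSR1-FLI1 and a single H2Aub1 peak, seen in 1 replicate. A region is called reproducible below where peaks of both replicates overlapped and were merged. The windows held 4 reproducible RING1B regions of 1587 in all (3 at IGF1R, 1 at IRS1) and 5 reproducible H2Aub1 regions of 6408 (3 at IGF1R, 1 at IRS1, 1 at IGFBP3).

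**Figure D1:**
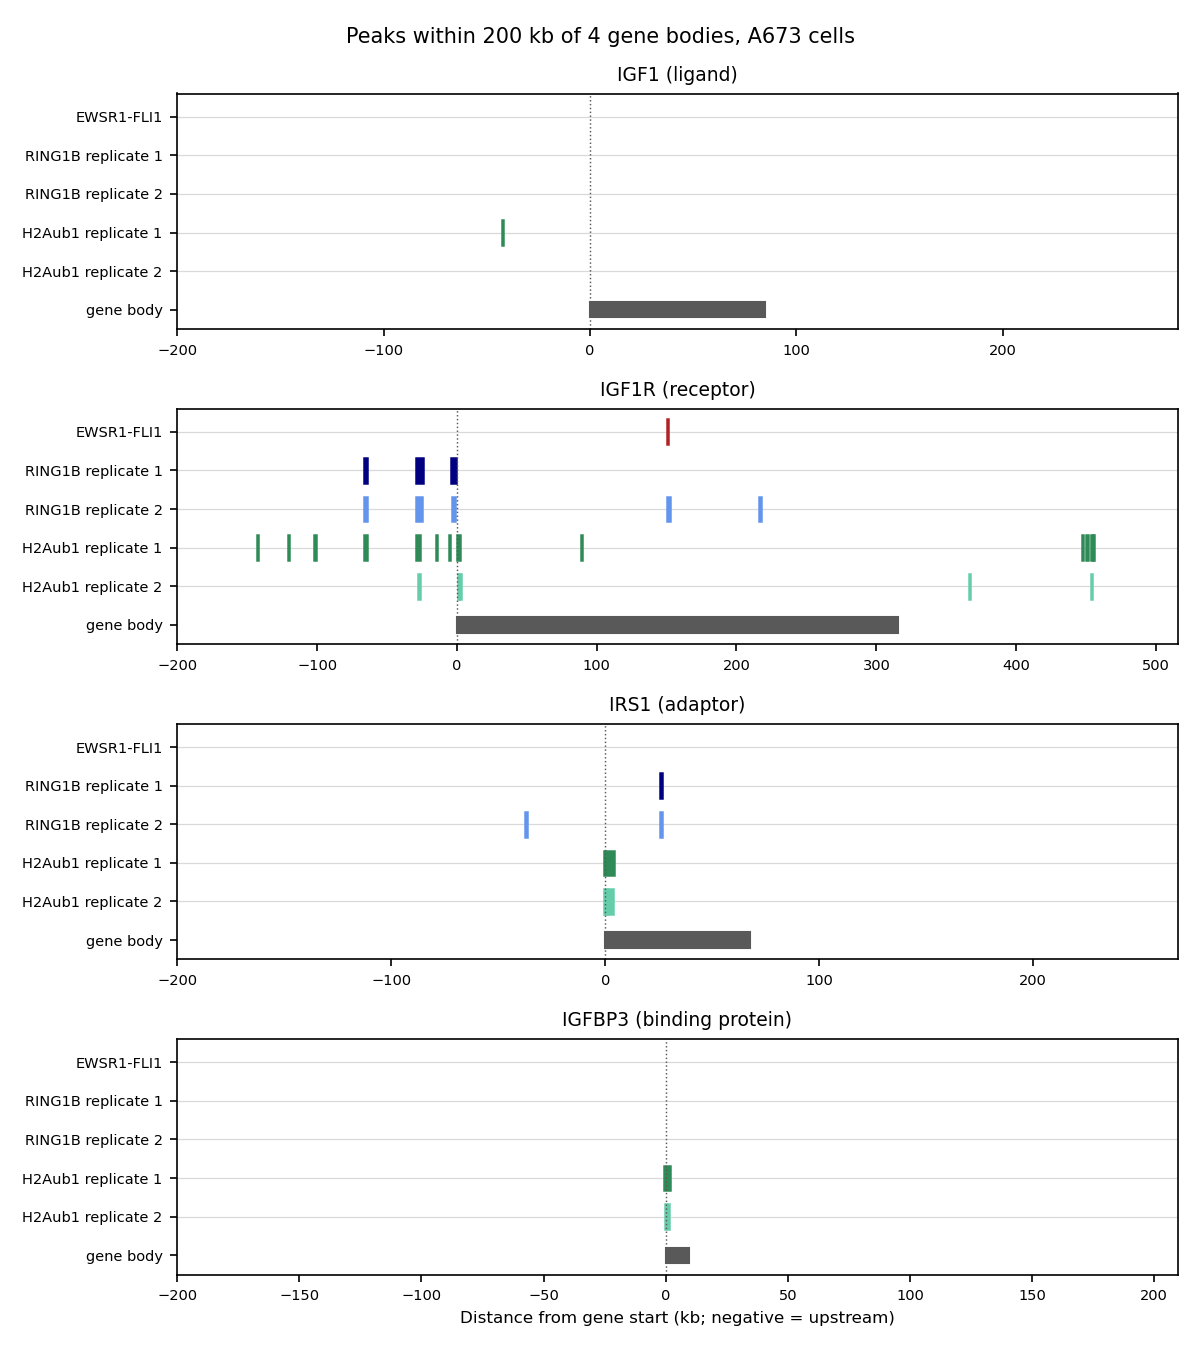
Peaks of the 5 lists (rows) within 200 kb of the gene bodies of IGF1, IGF1R, IRS1 and IGFBP3 (panels), drawn along the distance from the gene start in kb, upstream to the left; narrow peaks are drawn at least a line wide, and the grey bar is the gene body. RING1B lies upstream of IGF1R in both replicates, the only EWSR1-FLI1 peak lies inside IGF1R, and IGF1 has 1 H2Aub1 peak in replicate 1 alone.

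How often window peaks were listed in both replicates is given beside the whole lists, with no test at these numbers. All 4 RING1B peaks of replicate 1 overlapped replicate 2, against 62.6% of the list, and 4 of 7 peaks of replicate 2 overlapped replicate 1, against 40.9%. For H2Aub1, 5 of 16 peaks of replicate 1 overlapped replicate 2, against 26.6%, and 7 of 8 peaks of replicate 2 overlapped replicate 1, against 77.3%. Per Mb of the windows there were 1.93 reproducible RING1B regions, against 0.523 over the genome, and 3 of the 4 lie at IGF1R alone. Reproducible H2Aub1 regions stood at 2.41 per Mb against 2.11, and EWSR1-FLI1 peaks at 0.481 against 0.706.

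A reproducible H2Aub1 region lay within 1 kb of the gene start at 3 of the 4 genes, IGF1R, IRS1 and IGFBP3. Of all 2 kb windows of the genome, 0.979% touched such a region, but this background is not limited to gene starts. None of the 3 start regions overlapped a RING1B or EWSR1-FLI1 peak of any list. Over the genome 4.98% of reproducible H2Aub1 regions held reproducible RING1B, and among those of the windows 1 of 5 did, 26 kb upstream of the IGF1R start.

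**Figure D2:**
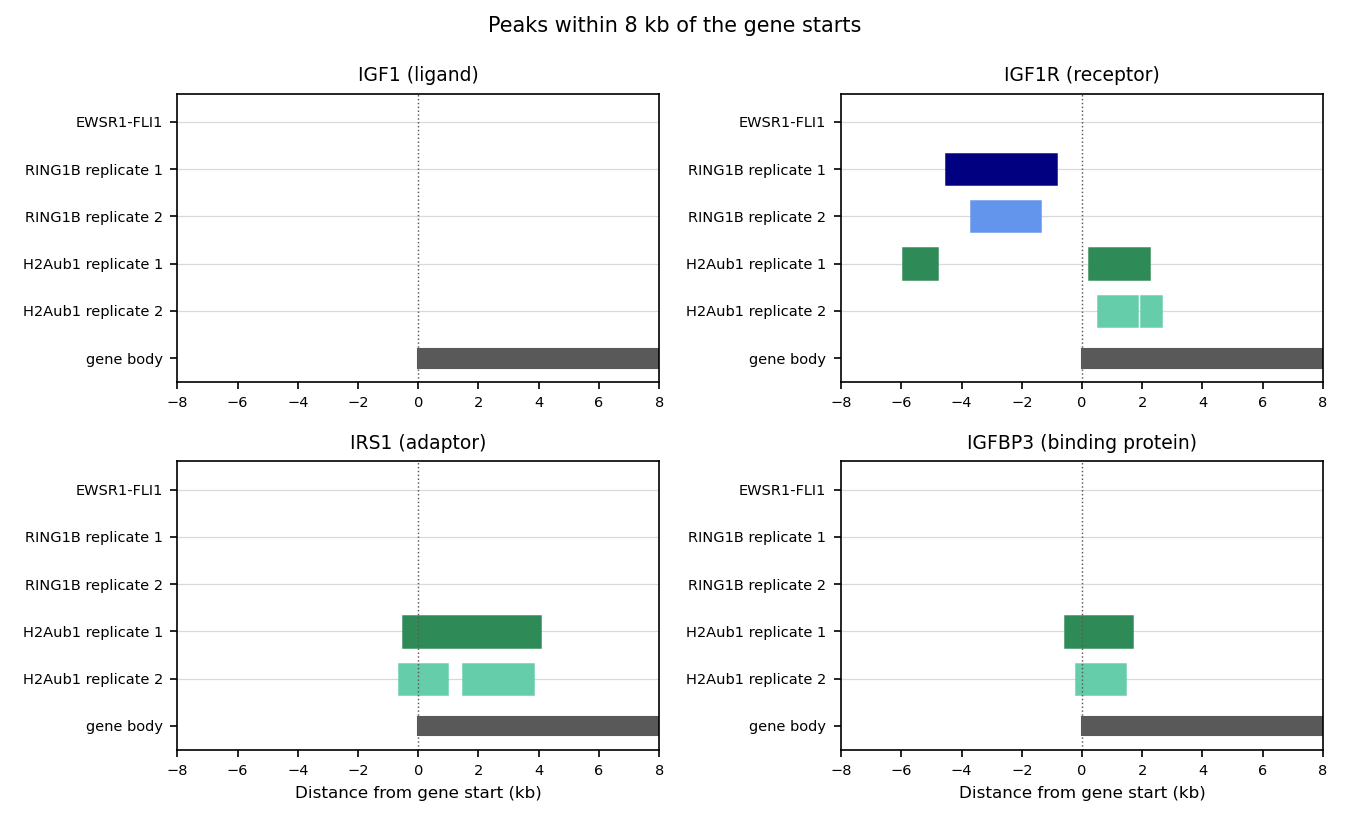
Peaks within 8 kb of the 4 gene starts, on the same rows and scale of distance in kb. H2Aub1 covers the starts of IRS1 and IGFBP3 in both replicates and begins 229 bp inside IGF1R, where RING1B ends 876 bp before the start, and IGF1 has no peak in this range.

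The bases before each start are shown because the 3 genes with the mark at their start and the 1 without differ in CpG content. These are the 250 bases before the start in RefSeq, read 5′ to 3′ along the gene on GRCh38.p14, with CpG dinucleotides in capitals. All 4 genes matched an entry, and for IGF1, which has 2 entries, the outer start is shown.
IGF1 (chr12:102481748-102481997, minus strand): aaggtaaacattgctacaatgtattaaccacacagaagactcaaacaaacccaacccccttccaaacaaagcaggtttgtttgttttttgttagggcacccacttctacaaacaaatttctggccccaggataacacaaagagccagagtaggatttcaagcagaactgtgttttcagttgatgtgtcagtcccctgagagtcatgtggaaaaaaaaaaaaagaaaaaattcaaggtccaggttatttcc
IGF1R (chr15:98648289-98648538, plus strand): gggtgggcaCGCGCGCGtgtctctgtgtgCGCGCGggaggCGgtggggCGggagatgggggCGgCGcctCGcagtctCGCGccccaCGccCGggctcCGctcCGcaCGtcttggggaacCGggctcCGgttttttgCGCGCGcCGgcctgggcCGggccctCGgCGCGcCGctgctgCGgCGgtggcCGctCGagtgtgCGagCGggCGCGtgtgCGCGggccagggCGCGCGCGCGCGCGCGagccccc
IRS1 (chr2:226799821-226800070, minus strand): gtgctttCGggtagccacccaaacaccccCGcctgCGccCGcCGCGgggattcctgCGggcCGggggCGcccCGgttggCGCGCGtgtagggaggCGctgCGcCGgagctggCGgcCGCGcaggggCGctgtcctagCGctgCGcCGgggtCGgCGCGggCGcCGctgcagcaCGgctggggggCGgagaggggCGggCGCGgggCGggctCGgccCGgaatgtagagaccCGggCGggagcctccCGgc
IGFBP3 (chr7:45921273-45921522, minus strand): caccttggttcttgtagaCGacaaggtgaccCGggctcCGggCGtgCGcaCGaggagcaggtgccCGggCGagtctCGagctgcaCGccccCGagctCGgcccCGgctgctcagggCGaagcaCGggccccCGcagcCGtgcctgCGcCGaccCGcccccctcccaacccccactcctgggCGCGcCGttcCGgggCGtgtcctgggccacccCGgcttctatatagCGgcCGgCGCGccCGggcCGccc

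The receptor sequence held 48 CpG dinucleotides at a GC content of 81.2%, and 99.7% of 35116 RefSeq promoters had fewer. The adaptor followed with 39 at 80.8% GC, above 97.3% of promoters, and the binding protein with 32 at 76.0% GC, above 90.5%. The ligand stood at the other end, with 0 before the start shown and 1 before the other, where the median promoter has 11. The order of CpG content is thus IGF1R, IRS1, IGFBP3 and IGF1, and H2Aub1 was found at the first 3. With 4 genes this is a description and was not tested. The H2Aub1 scores at these starts did not follow the CpG order. In replicate 1 they were 275 at IGF1R, 589 at IRS1 and 435 at IGFBP3. In replicate 2 the peaks nearest to the starts scored 127, 116 and 149. The share of CpG-rich promoters with H2Aub1 was not counted. The letters GGAA or, on the other strand, TTCC occurred 3 times at the shown start of IGF1, 2 times at IRS1 and 1 time each at IGF1R and IGFBP3. The median promoter has 3. At least 3 occur in 55.1% of all promoters, at least 2 in 76.5% and at least 1 in 92.7%. The tandem form GGAAGGAA or TTCCTTCC was in none of the 4, and is in 3.06% of all promoters. The peaks are placed on hg19 and the sequences on GRCh38.p14. The gene lengths of the 2 builds differ by 432 bp for IGF1R, 602 bp for IGFBP3, 1035 bp for IRS1 and 1232 bp for IGF1, so the start may not be the same base. All other coordinates are hg19, as deposited.

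**Figure D3:**
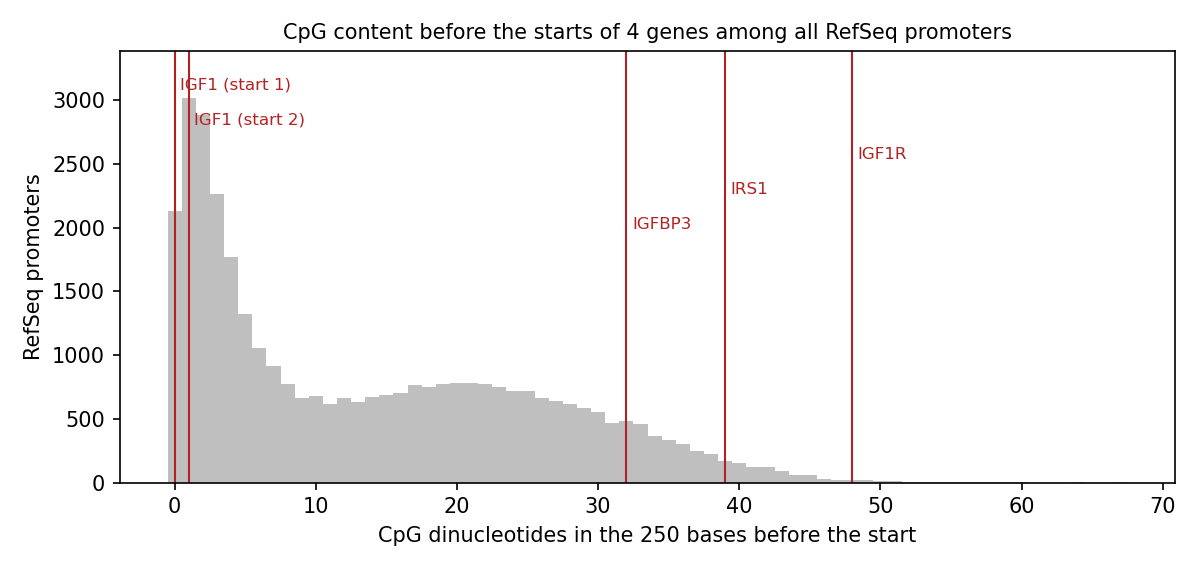
Number of RefSeq promoters (bars) by CpG dinucleotides in the 250 bases before the start; red lines mark the 4 genes. IGF1 lies at 0 and 1, and IGFBP3, IRS1 and IGF1R lie at 32, 39 and 48 in the right tail.

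The receptor IGF1R (hg19 chr15:99192200-99507759, plus strand) had the most peaks, with 27 of the 36. The window of this gene was also the longest, at 715560 bp against 409630 to 484734 bp for the others. H2Aub1 replicate 1, the longest list, gave 13 of the 27. The IGF1R window held 3 reproducible RING1B regions. At least 3, the number observed here, were found in 3.07% of genome windows of its length, and at least 1 in 24.4%. All 3 lie within 67 kb upstream of the start. By gene order, the next protein-coding gene on that side is ARRDC4, and distance alone does not tie these regions to IGF1R.

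The outermost region, chr15:99125635-99127877, ends 64 kb before the start. Its RING1B score was 298 in replicate 1 and 256 in replicate 2, above 87.0% and 91.4% of the peaks of these lists. Scores are the authors' own and are compared only within a list. An H2Aub1 peak of replicate 1 covered the whole RING1B peak, with its centre at the same base (score 238, above 87.5% of its list). No H2Aub1 peak of replicate 2 was listed there.

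The middle region, chr15:99162598-99168185, spans 5588 bp and ends 24 kb before the start. Its RING1B peak ranked 5 of 2573 in replicate 1 (score 3051) and 8 of 3945 in replicate 2 (score 1444), among the highest-scoring peaks of both lists. H2Aub1 lay within it in both replicates, but scored only in the middle of its lists, at 94.7 (above 57.3%) and 83.0 (above 53.9%). The H2Aub1 peak was also narrower than the RING1B peak, with 2735 against 5588 bp in replicate 1 and 1296 against 3787 bp in replicate 2. Enzyme and mark were thus listed at the same place. Their ranks come from lists of unlike length, so they do not compare the amount of RING1B with that of H2Aub1.

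The innermost region, chr15:99187670-99191324, ends 876 bp before the start in replicate 1 and 1379 bp before it in replicate 2. It ranked 23 of 2573 in replicate 1 (score 1412) and 143 of 3945 in replicate 2 (score 429). No H2Aub1 peak overlapped it. In replicate 1 the mark flanked it on both sides, with a peak ending 272 bp outside its upstream edge (score 70.04) and the peak at the gene start 1104 bp beyond its downstream edge. In replicate 2 only the downstream peak was listed.

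The H2Aub1 region at the receptor start, chr15:99192429-99194808, runs from 229 to 2608 bp inside the gene. The mark scored 275 in replicate 1, above 89.7% of that list, and in replicate 2 it was split into peaks of 127, above 76.8%, and 55.4, above 14.9%. RING1B and H2Aub1 therefore met the start from opposite sides without overlapping. If the whole difference in gene length between the builds lay at the 5′ end, the start would move 432 bp upstream and still fall between them, 444 bp from the RING1B region.

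**Figure D4:**
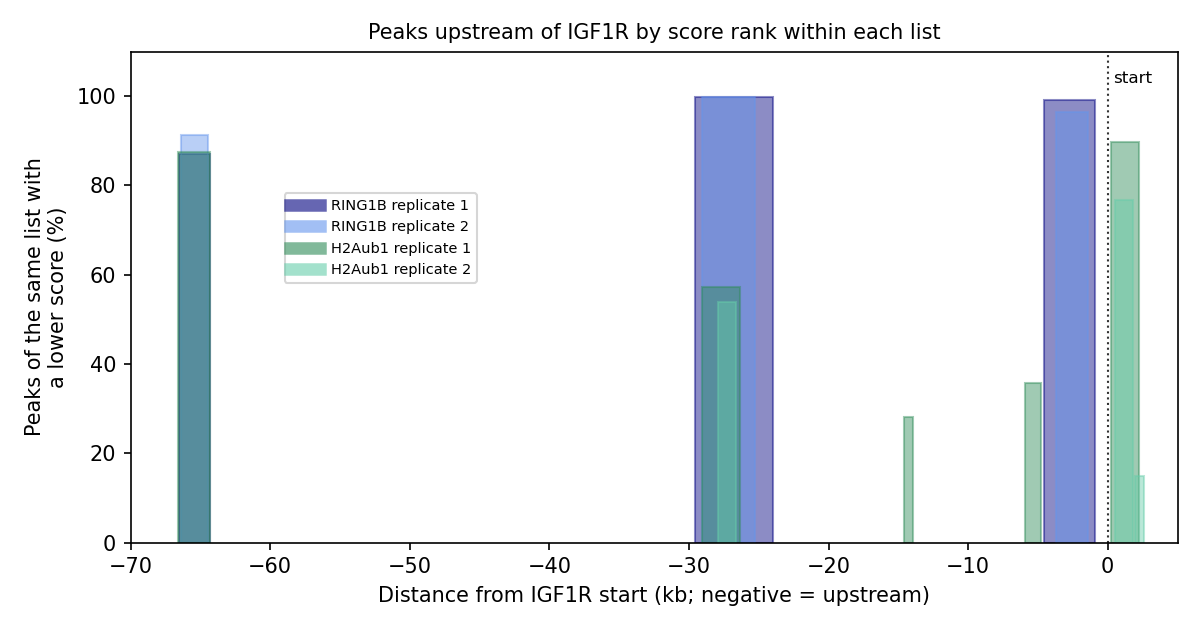
RING1B (blue) and H2Aub1 (green) peaks from 70 kb upstream to 5 kb inside IGF1R, along the distance from the start in kb; bar width is peak width and bar height is the percentage of peaks of the same list with a lower score. At the middle region RING1B stands at 99.8% in both replicates and H2Aub1 at 57.3% and 53.9%, and at the innermost region there is RING1B without H2Aub1. Heights rank peaks within a list and do not compare amounts between lists.

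Inside the receptor gene lay the only EWSR1-FLI1 peak of the 4 windows, chr15:99342698-99343556, 150 kb downstream of the start. Its score of 51.3 ranked 2086 of 2145, above 2.66% of that list, whose lowest score is 50.04. It lay wholly within a RING1B peak of replicate 2 (chr15:99342687-99344357, score 163, above 83.1% of its list), with 395 bp between the centres. No RING1B peak of replicate 1 was listed there, so the site counts as shared in replicate 2 alone. Of all EWSR1-FLI1 peaks, 41.8% overlapped a reproducible RING1B region, and of RING1B peaks listed in replicate 2 but not in replicate 1, 11.9% overlapped EWSR1-FLI1, against 1 of 3 in the windows. An EWSR1-FLI1 peak was present in 31.0% of genome windows as long as that of IGF1R. A further RING1B peak of replicate 2, 216 kb inside the gene, was weak (58.3, above 20.8%) and overlapped no other list.

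Most of the remaining H2Aub1 peaks around IGF1R were listed in a single replicate. Replicate 1 listed 13 in the window and replicate 2 listed 5, which gave 3 reproducible regions. Of genome windows of this length, 16.7% had at least 3 and 40.2% at least 1. The third reproducible region, chr15:99645882-99647158, lies 138 kb beyond the end of the gene (scores 137 and 64.3) and is named here after its values were seen. The next protein-coding genes on that side are PGPEP1L and SYNM, so distance to IGF1R does not tie these peaks to it.

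The adaptor IRS1 (hg19 chr2:227596033-227663506, minus strand) carried H2Aub1 over its start and the first 4 kb of the gene. The region chr2:227659458-227664149 spans 4692 bp, from 643 bp before to 4048 bp after the start. Replicate 1 listed it as a single peak with a score of 589, above 96.9% of its list in score and in width. Replicate 2 listed peaks of 184 and 116, above 87.5% and 73.1%, with the second over the start. The peaks of 589 and 184 were the highest-scoring H2Aub1 peaks of the 4 windows in replicates 1 and 2. If the difference in gene length lay wholly at the 5′ end, the start would lie 392 bp outside this region. By gene order, the next protein-coding gene upstream is RHBDD1, a rhomboid-family protease gene, whose start was not placed on hg19 here.

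RING1B at IRS1 lay away from the mark, 25 kb inside the gene at chr2:227636916-227638043. Its scores were 155 in replicate 1, above 73.5% of the list, and 77.7 in replicate 2, above 49.4%. The nearest H2Aub1 peaks were 21.6 kb (replicate 1) and 21.7 kb (replicate 2) from the RING1B peak of the same number, and no EWSR1-FLI1 peak was in the window. A RING1B peak 37 kb upstream of the start was listed in replicate 2 only (71.3, above 42.7%). It lies on the side of RHBDD1, whose start was not placed here, so distance to IRS1 does not tie this peak to it. At least 1 reproducible RING1B region was found in 17.3% of genome windows as long as that of IRS1, a reproducible H2Aub1 region in 31.8% and an EWSR1-FLI1 peak in 22.6%.

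The 4 reproducible RING1B regions of the receptor and the adaptor were compared with all 1587. EWSR1-FLI1 was at 0 of the 4, against 56.2% of all, reproducible H2Aub1 at 1 of the 4, against 19.8%, and both at 0, against 5.10%. Neither was at 3 of the 4, against 29.0%, and 1 of these 3 had H2Aub1 in replicate 1. With 4 regions at 2 genes this was not tested.

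The binding protein IGFBP3 (hg19 chr7:45951844-45961473, minus strand) had H2Aub1 over its start in both replicates and no other peak in its window. The region chr7:45959803-45962027 runs from 554 bp before to 1670 bp after the start. It scored 435 in replicate 1, above 94.7% of the list, and 149 in replicate 2, above 82.1%. A start moved by the full difference in gene length would still lie inside it. In replicate 1 it ranked between the H2Aub1 peaks at the IRS1 and IGF1R starts. In replicate 2 it ranked above the peaks nearest to these starts (116 and 127). It ranked below the IRS1 peak of 184, which begins 1470 bp inside that gene. The nearest RING1B peak was 2299 kb from the IGFBP3 start in replicate 1 and 810 kb in replicate 2. The nearest EWSR1-FLI1 peak was 2082 kb away with a score of 52.5. Of genome windows of this length, 29.2% had a reproducible H2Aub1 region, 15.4% a reproducible RING1B region and 20.3% an EWSR1-FLI1 peak. Its neighbour IGFBP1, another binding protein gene of the family, is the next protein-coding gene downstream.

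The ligand IGF1 (hg19 chr12:102789645-102874378, minus strand) was bare of all 3 features at its start. The only peak of the window was H2Aub1 in replicate 1, chr12:102916306-102917004, 42 kb upstream of the start, with a score of 54.6, above 12.2% of its list. Replicate 2 had no H2Aub1 peak in the window, and all RING1B and EWSR1-FLI1 lists had none. An absent peak shows only that none was listed, since the depth of the libraries is unknown. Of genome windows of this length, 17.7% had a reproducible RING1B region, 23.2% an EWSR1-FLI1 peak and 32.4% a reproducible H2Aub1 region, so most lacked each of them.

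**Figure D5:**
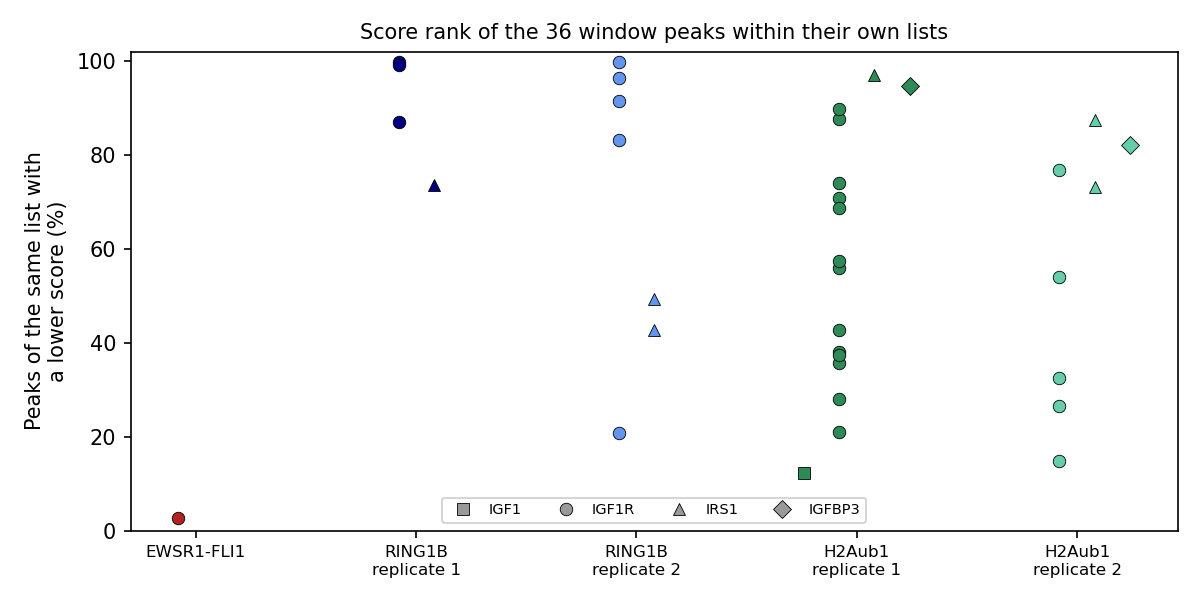
Score rank of each of the 36 peaks within its own list, as the percentage of peaks of that list with a lower score (vertical axis), by list (horizontal axis); the marker shape gives the gene. The EWSR1-FLI1 peak lies at 2.66%, RING1B at IGF1R reaches 99.8%, and the H2Aub1 peaks of IRS1 and IGFBP3 stand at 73.1% or higher.

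Just outside the windows the picture at the ligand and the receptor differed. An EWSR1-FLI1 peak scoring 217 (rank 434 of 2145) lay 220 kb from the IGF1 gene body, on the 3′ side, at chr12:102568863-102569988. It overlapped a RING1B peak of replicate 1 (106, above 59.4% of its list), and replicate 2 listed no RING1B peak there. H2Aub1 did not overlap it but was listed nearby in both replicates. These peaks were chr12:102571070-102572772 in replicate 1 (69.3, above 34.9% of its list) and chr12:102572675-102573600 in replicate 2 (69.6, above 39.8%). At the receptor, chr15:98926407-98927838, 264 kb upstream of the gene body, held an EWSR1-FLI1 peak of 381 (rank 204 of 2145) that overlapped peaks of all 4 other lists. RING1B scored 80.2 in replicate 1 and 210 in replicate 2 there, and the strongest overlapping H2Aub1 peaks scored 679 and 178. A further EWSR1-FLI1 peak, chr15:98703402-98704334, lay 488 kb upstream of the IGF1R gene body, scored 72.8 (rank 1428 of 2145) and overlapped no other list. These were the 3 EWSR1-FLI1 peaks between 200 and 500 kb from the 4 gene bodies, and each ranked above the 1 inside the windows. Which gene they act on was not measured.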

How the data were processed

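ChIP-seq peak lists of RING1B (2 replicates), H2Aub1 (2 replicates) and EWSR1-FLI1 (1 sample) from A673 cells were used as deposited. Bowtie and hg19 are named in the submitters' processing notes of every sample, as is mm9, with no stated role, for RING1B and H2Aub1. Peak names begin with MACS, per the file headers and rows. Version, thresholds, filters and use of input are not given in the sources used here. Each deposited peak has a score by the authors on a scale that is not stated, so it served only for ranks within a list. The lists hold no counts, so the depth behind each peak is unknown and lists of unequal depth may differ in length.

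Gene bodies were the stated hg19 intervals, and gene strands came from RefSeq. Coordinates were written 1-based. Overlap was at least 1 bp, and replicate peaks were merged into reproducible regions. Background shares came from all peaks, or from adjoining windows of equal length over hg19 chromosomes 1 to 22 and X (lengths from GenomeInfoDb 1.38.1), assembly gaps included. Promoter sequences were RefSeq, GRCh38.p14. Python 3.11.15 with pandas 2.3.3 was used, and overlap counting was checked on simulated data. Named were the 4 genes, each of their RING1B and EWSR1-FLI1 peaks, and H2Aub1 peaks that overlapped these, lay within 10 kb of a start or scored highest, plus 1 further reproducible H2Aub1 region beyond IGF1R and the peaks given outside the windows, which were picked after their values were seen. The members, lists and rules were chosen with earlier results of these data known. No test was run, since the members are single loci. An annotation of hg19 was not used, so exons, introns and other genes of the pathway were not analysed here.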

Additional observations from a re-analysis of the deposited data

How the results depend on the processing

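With windows of 100 kb, with the peak centre required to lie in the window, or with overlaps of 50% of the shorter region, the counts summed over the 4 windows stayed within 1.5 times of those given (the 36 peaks became 28 with 100 kb). With windows of 500 kb there were 109 peaks, 17 reproducible H2Aub1 regions, 4 EWSR1-FLI1 peaks and 1 EWSR1-FLI1 peak with reproducible RING1B. The highest-scoring 50% of each list left 22 peaks and 0 EWSR1-FLI1 peaks. This setting left 3 reproducible RING1B regions, and IRS1 then had 0. The union of replicates gave 7 RING1B regions, 17 H2Aub1 regions and 1 EWSR1-FLI1 peak with RING1B. Leaving out a replicate of RING1B or H2Aub1 in turn gave 4 to 7 RING1B regions and 0 to 1 EWSR1-FLI1 peaks with RING1B. H2Aub1 regions numbered 5 to 16, but the 5 came from leaving out a RING1B replicate, which this count does not use. The count of 1 EWSR1-FLI1 peak uses neither RING1B nor H2Aub1, so these alternatives could not change it. The 7 RING1B regions, and the 1 EWSR1-FLI1 peak with RING1B, came without RING1B replicate 1. H2Aub1 had 8 without replicate 1 and 16 without replicate 2. Of 160 counts for a single gene under an alternative, 125 stayed within 1.5 times and 35 did not. The 125 include counts of 0 that stayed at 0. They also include alternatives that left out a list the count does not use, so the share is not a measure of stability. No paired analysis was possible because the results are counts of listed peaks and come from no test. Depth is unknown, so an unlisted peak sets no limit on occupancy.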

Other observations

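A dense stretch of H2Aub1 lay between 200 and 300 kb upstream of the IGF1R gene body, outside the windows, and was singled out after its values were seen. Replicate 1 listed 20 H2Aub1 peaks there (37.1 kb covered, scores 50.2 to 679) between 98906629 and 98974592 on chromosome 15 (hg19). Replicate 2 listed 9 (12.6 kb covered, scores 53.7 to 180) between 98924029 and 98966525. Each of the RING1B and EWSR1-FLI1 lists had 1 peak in this range, at the shared site 264 kb upstream. The RING1B site 24 kb upstream of IGF1R had H2Aub1 scores of 94.7 in replicate 1 and 83.0 in replicate 2. Each lies within the range of scores of this stretch in the same replicate. These ranges begin near the lowest scores of the lists, 50.01 and 50. A score in the middle of its list therefore falls within them, and this shows no likeness between the sites.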
